A study of Mus musculus with 8 samples.

Results

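Sst, Cort, Npy, Vip, Cck and Lamp5 mark families of interneurons of the forebrain, and Gad1, Gad2 and Slc32a1 are the genes with which inhibitory neurons make and load GABA. These 9 genes were taken by symbol, and all 9 were found among the 32285 genes of the count tables. The counts came from Visium spatial transcriptomics, in which a tissue section lies on a slide of barcoded capture spots of 55 µm and each transcript captured is counted once as a unique molecular identifier (UMI). A spot holds several cells, so a level here is a level of a small piece of tissue.

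Coronal brain sections of 10 µm were measured, 8 in all and 2 for each of 4 groups of p16-3MR mice, which were 9 to 10 months old per the labels. All groups, Control included, carry the p16-3MR transgene, a reporter and thymidine kinase driven by the p16 (Cdkn2a) promoter, so that ganciclovir kills cells in which that promoter is active. The PTX+ABT263 group received paclitaxel (PTX, 5 mg/kg/day in 2 cycles of 5 days separated by 7 days) and then the senolytic ABT263 (Navitoclax, 1.5 mg/kg/day). The PTX+GCV group received PTX and then ganciclovir (GCV, 25 mg/kg/day). ABT263 and GCV were each given for 5 days in 2 cycles with 2 weeks between them. The PTX group received PTX and then vehicle, and the Control group received vehicle (DMSO and saline) in place of PTX. Brains were taken 6 months after PTX. Nothing in the labels tells if a group's 2 sections are from 1 mouse or 2, so each p-value below measures the spread between sections only, which may be technical.

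The sections labelled PTX+ABT263 went against the sex on their label. All 8 are labelled male, but Xist, which is transcribed from the inactive X chromosome of females, was at 19.3 to 19.7 CPM (UMIs per 1000000 UMIs of the section or area) in the 2 sections labelled PTX+ABT263 and at 0 to 0.0259 CPM in the other 6. The Y-linked genes Ddx3y, Eif2s3y, Kdm5d and Uty were between 0 and 0.444 CPM in the sections labelled PTX+ABT263, against 4.72 to 35.8 CPM in the other 6. Every comparison that uses these 2 sections therefore also compares sections that differ in sex-linked transcripts, and the levels by area were computed without them too.

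After spots with few genes or a high mitochondrial share were left out, 21328 spots remained, 2346 to 2839 per section. Sections held 19870666 to 42886400 UMIs, and the median spot held 7583 to 15715.5 UMIs. Spots were clustered without the 9 genes, and 10 of 12 clusters were named by anatomical markers. The 2 that could not be named are called by genes among their leading ones, Myoc, Ccn3 and Lypd1 for one and Ucn3 and Baiap3 for the other. Isocortex was made of a deep-layer and an upper-layer cluster.

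GABA, the main inhibitory transmitter of the forebrain, is made from glutamate by the decarboxylases GAD67 (Gad1) and GAD65 (Gad2) and is loaded into vesicles by the transporter VGAT (Slc32a1). Cortical interneurons fall into families that share these genes and differ in the peptides and membrane proteins they carry. Somatostatin (Sst) cells contact distal dendrites and part of them also make cortistatin (Cort) or neuropeptide Y (Npy), vasoactive intestinal peptide (Vip) cells mainly inhibit other interneurons, cholecystokinin (Cck) marks a group of basket cells but is also made by many excitatory neurons, and Lamp5, a lysosome-associated membrane protein, marks neurogliaform cells and some excitatory neurons of the cortex.

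In the mouse genome build GRCm38 the 9 genes lie on 6 chromosomes. Sst is at chr16:23889573-23890958 and Cort at chr4:149125034-149126763, both on the minus strand. Npy is at chr6:49822710-49829507 and Vip at chr10:5639218-5647617, both on the plus strand. Cck is at chr9:121489824-121495694 on the minus strand. The other 4 lie on the plus strand of chromosome 2, Gad2 at chr2:22622205-22693874, Gad1 at chr2:70553072-70602014, Lamp5 at chr2:136052239-136069917 and Slc32a1 at chr2:158610767-158615748. Gad1 shares 10286 bases with the antisense gene Gad1os, and Slc32a1 shares 911 bases with the antisense gene Gm14205. The counting is not stated to use strand in the sources used here, so reads of these pairs may not be told apart.

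Several neuropeptide genes are known for a cyclic AMP response element near their start, the palindrome TGACGTCA or its shorter form TGACG, and the windows of the 5 genes that hold one are shown to set these letters side by side. RefSeq promoters (GRCm38.p6, 250 bases before each start were searched, on either strand) matched all 9 genes, with 2 promoters for Lamp5. The full palindrome was found in 1 of the 9 genes, against 1.55% of all 32851 promoters. The short form, which the palindrome contains, was found in 5 of the 9 genes, against 17.8% of all promoters. Each window of 30 bases is given 5′ to 3′ on the strand of its gene, with the motif in capitals (CGTCA is TGACG on the opposite strand).
Sst, chr16:23890874-23890903: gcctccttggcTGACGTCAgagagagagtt
Cort, chr4:149126765-149126794: gctccggcttgtgCGTCAccgcgtgagtgt
Vip, chr10:5639126-5639155: gggatcactactgTGACGtctttcggggag
Cck, chr9:121495725-121495754: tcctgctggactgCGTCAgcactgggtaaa
Gad2, chr2:22622281-22622310: tccatttcccttcCGTCActctctcatctc
The motif began 48 bases before the RefSeq start in Sst, 18 in Cort, 79 in Vip, 47 in Cck and 33 in Gad2. The windows of Sst and Gad2 lie inside the longer gene models of the annotation used for positions. No window of Npy, Lamp5, Gad1 or Slc32a1 held these letters. A match is a description of letters and no evidence of binding.

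The 3 genes of GABA synthesis and loading shared 1 summit, the cluster of the reticular thalamus and pallidum, where nearly all neurons are inhibitory. Levels by area are given as CPM of the area, as mean ± SD over 8 sections. They are a description, since the areas are cut from the same sections, and no test was made between areas. Gad1 was at 3406 ± 321 CPM there, with a lowest section of 2896 CPM and a highest of 3887 CPM. It was next highest in striatum, at 435 ± 59.4 CPM, and no section of striatum reached the lowest section of the first. Gad1 was at 305 ± 38.2 CPM in isocortex and at 251 ± 42.5 CPM in hippocampus, whose ranges overlapped.

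Gad2 and Slc32a1 had the same summit. Gad2 was at 759 ± 41.8 CPM in the reticular thalamus and pallidum, then at 337 ± 47.7 CPM in the Ucn3 cluster, 308 ± 38.7 CPM in striatum and 294 ± 71.6 CPM in hypothalamus. These 3 overlapped one another, and all were above isocortex, at 85.0 ± 8.22 CPM. Slc32a1 followed the same order, at 530 ± 54.4 CPM, 284 ± 47.1 CPM, 275 ± 27.3 CPM and 238 ± 58.0 CPM, and was at 100 ± 11.8 CPM in isocortex. Gad1 differed from the pair in that isocortex lay close to its whole-section level of 299 ± 48.3 CPM, whereas whole-section Gad2 (137 ± 22.7 CPM) and Slc32a1 (121 ± 19.9 CPM) were above their isocortex levels. All 3 were lowest in thalamus, habenula and choroid plexus, at means of 7.08 to 52.2 CPM. The reticular cluster was small (37 to 73 spots per section), and it held 5.13% to 19.99% of the Gad1 UMIs of a section.

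Sst peaked with the GABA genes and in the Ucn3 cluster. It was at 1119 ± 308 CPM in the Ucn3 cluster and at 1087 ± 361 CPM in the reticular thalamus and pallidum, and these ranges overlapped. The Ucn3 cluster held 1379 and 1427 CPM of Sst in the sections labelled PTX+ABT263, 1251 and 1047 CPM in PTX+GCV, 817 and 541 CPM in PTX, and 1143 and 1346 CPM in Control. Both PTX sections were lowest. In the reticular cluster both PTX sections were highest: Sst was at 806 and 1027 CPM in the sections labelled PTX+ABT263, 868 and 1094 CPM in PTX+GCV, 1213 and 1906 CPM in PTX, and 980 and 803 CPM in Control. The PTX sections thus stood at opposite ends in these areas, which are compared by group for Sst only. How many of all genes, or of the other members, set the PTX sections apart there was not counted. No effect of PTX is therefore read from these levels. These small areas were not tested, and how much of each cluster lies in a section depends on where the brain was cut.

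Within isocortex Sst and Cort leaned to the deep layers. Sst was at 702 ± 85.3 CPM in the deep layers and 392 ± 74.1 CPM in the upper layers, and no upper-layer section reached the lowest deep-layer section (562 CPM). Cort was at 68.7 ± 17.1 CPM in the deep layers, 58.9 ± 17.9 CPM in hippocampus and 34.7 ± 7.56 CPM in the upper layers, and each range overlapped the next. Cort was near 0 in the reticular thalamus and pallidum, with 3 UMIs over all 8 sections, where Sst had 4215 UMIs.

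Lamp5 and Vip leaned the other way. Lamp5 was at 525 ± 76.0 CPM in the upper layers and 203 ± 34.4 CPM in the deep layers, which in turn lay above striatum (124 ± 26.7 CPM), with no overlap at either step. Vip was at 96.5 ± 15.3 CPM in the upper layers, 46.1 ± 10.3 CPM in the Myoc cluster and 33.1 ± 9.28 CPM in the deep layers, and its upper-layer range lay above all other areas. In every area other than these 3 Vip averaged 12.6 CPM or less. Upper layers held 37.5% to 55.1% of the Lamp5 UMIs of a section and 26.9% to 49.0% of its Vip UMIs.

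Npy and Cck crossed these borders. Npy was at 380 ± 90.6 CPM in the upper layers, 324 ± 80.4 CPM in the deep layers, 251 ± 35.1 CPM in striatum and 218 ± 51.9 CPM in hippocampus, each overlapping the next. Cck was highest in hippocampus, at 1682 ± 211 CPM, then at 1435 ± 140 CPM in the upper layers, 1320 ± 102 CPM in the deep layers and 1047 ± 106 CPM in thalamus, an area in which the 3 GABA genes were near their lowest. It was lowest in hypothalamus, at 105 ± 46.5 CPM. Without the sections labelled PTX+ABT263, the isocortex means were 557 CPM for Sst, 48.8 CPM for Cort, 348 CPM for Npy, 64.7 CPM for Vip, 1378 CPM for Cck, 333 CPM for Lamp5, 313 CPM for Gad1, 87.3 CPM for Gad2 and 101 CPM for Slc32a1, each within 1 SD of its mean over all 8 (559, 53.1, 350, 62.5, 1374, 352, 305, 85.0 and 100 CPM in the same order of genes). All 108 means of the 9 genes over the 12 areas moved by less than 1 SD when these 2 sections were left out, by at most 0.447 SD. The area with the highest mean stayed the same for 8 of the 9, and for Sst it became the reticular thalamus and pallidum, at 1144 CPM, against 1024 CPM in the Ucn3 cluster.

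**Figure D1:**
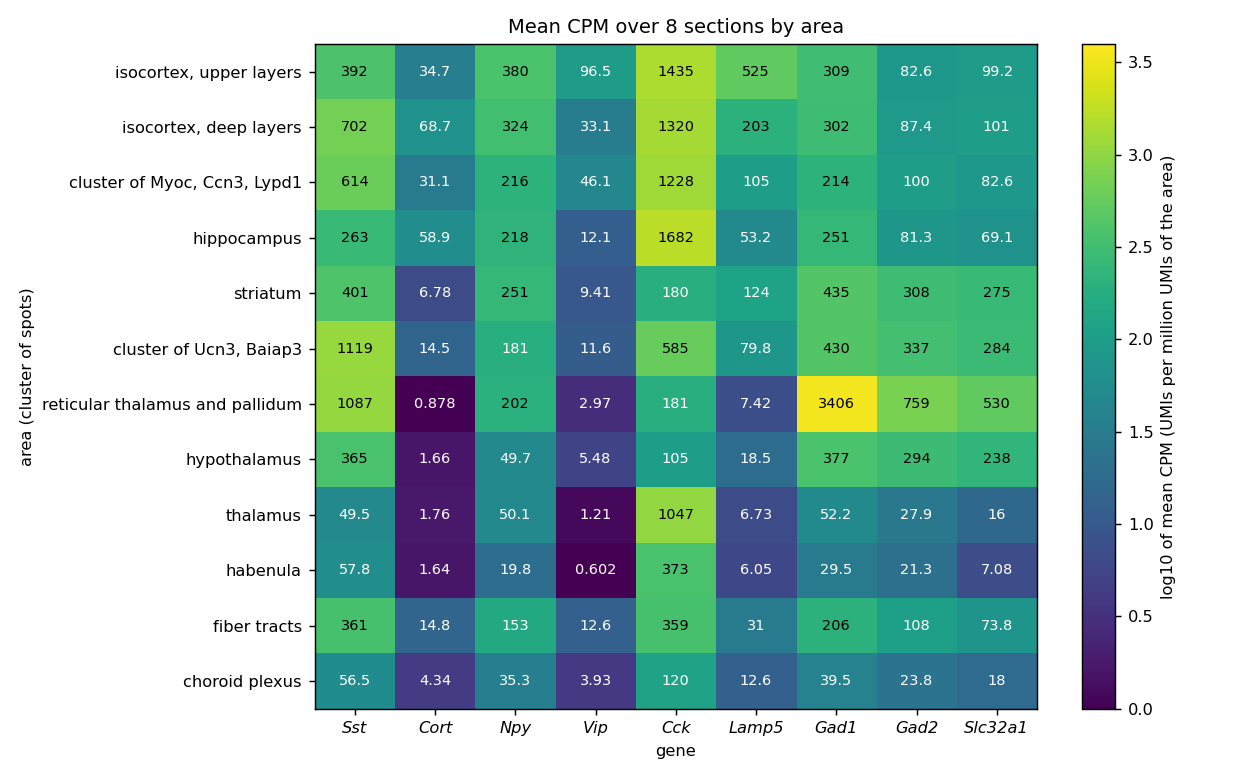
Mean CPM of the 9 genes (columns) in 12 areas (rows) over 8 sections, printed in each cell and coloured on a log10 scale. Gad1 reached 3406 CPM in the reticular thalamus and pallidum, Cck peaked in hippocampus at 1682 CPM, and Lamp5 and Vip were highest in the upper layers of the isocortex, at 525 and 96.5 CPM.

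Over 80 points (10 named areas in 8 sections), the gene most like Gad1 among 11447 was Gad2, with a Pearson r of 0.92 of log2(CPM + 1), followed by Slc32a1 (0.83). Slc32a1 was most like Dlx6 (0.87), a homeobox gene of the inhibitory lineage. Sst was most like Slc32a1 (0.85), followed by Rpp25 (0.84) and Gad1 (0.82). The points share sections, so r is a description and carries no p.

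The other 5 were most like genes of excitatory neurons or of the cortex at large. Cck was most like Slc17a7 (0.93), the vesicular glutamate transporter of cortex and hippocampus. Cort was most like Fezf2 (0.87) and Tbr1 (0.87), transcription factors of deep-layer projection neurons, and Tbr1 (0.82) was also among the 3 genes most like Vip. Npy was most like Homer1 (0.86), a postsynaptic scaffold gene, and Lamp5 was most like the potassium channel genes Kcnh3 (0.90) and Kcnv1 (0.90).

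The UMIs of 4 peptide genes were packed into few spots. The top 1% of spots held 29.8% to 54.5% of a section's Vip UMIs, 26.2% to 40.2% of its Cort UMIs, 18.0% to 27.1% of its Sst UMIs and 17.6% to 32.6% of its Npy UMIs. For Cck the same share was 6.20% to 9.93%. The GABA genes lay between, at 7.45% to 17.4% for Gad1, 8.93% to 11.6% for Gad2 and 8.39% to 11.96% for Slc32a1, and Lamp5 was at 11.7% to 17.3%. A single spot reached 492 UMIs of Sst, 291 of Npy, 199 of Cck, 117 of Cort, 115 of Gad1, 65 of Vip, 52 of Lamp5, 46 of Gad2 and 38 of Slc32a1.

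**Figure D2:**
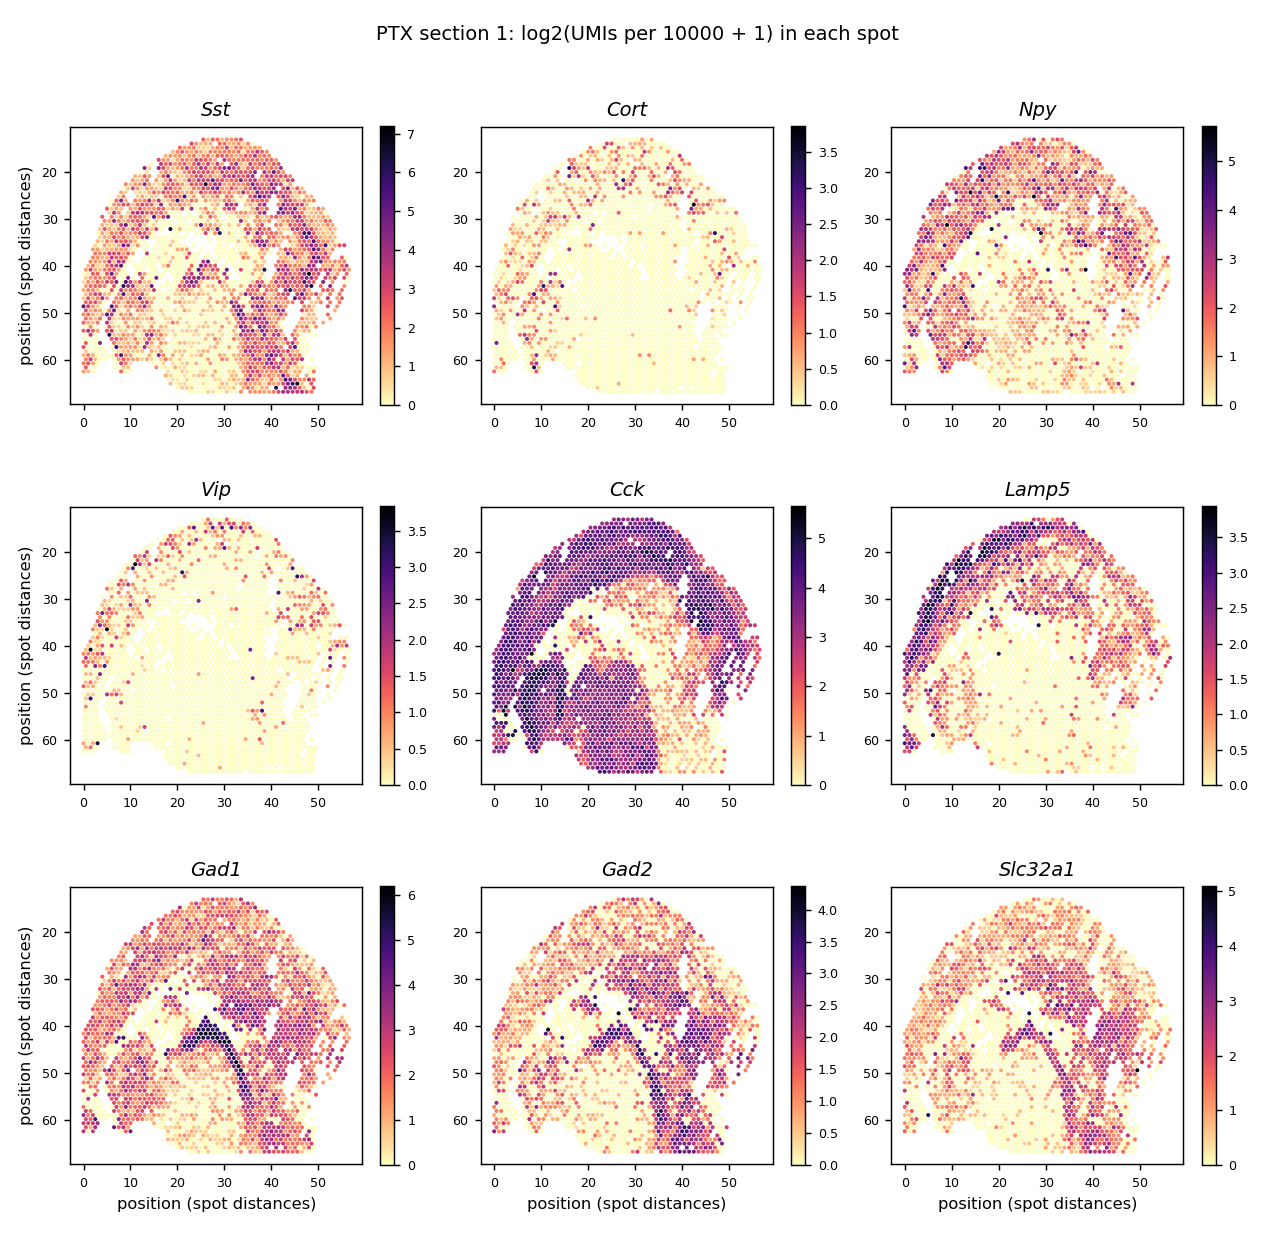
Log2(UMIs per 10000 + 1) of each gene in the spots of PTX section 1, at their place on the slide (axes in distances between neighbouring spots, each panel with its own colour scale). Sst, Cort, Npy and Vip stand in single dark spots, Cck is spread over large fields of spots, and the 3 GABA genes share a dark, narrow, curved band.

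In isocortex, spots with Npy or Cort held more Sst than other spots. In spots with at least 1 UMI of Npy, Sst was 2.60 times its level in spots without (median of 8 sections, lowest 1.93, highest 3.87), and Cort was 2.301 times (1.63 to 3.76). In spots with Cort, Sst was 2.36 times its level elsewhere (1.76 to 3.19). All 8 sections were above 1 in each case. The reverse was weaker for Npy, at 1.23 times in spots with Sst (0.869 to 2.07, above 1 in 7 of 8). Spots without Sst numbered from 21 (against 649 with it, PTX+GCV section 2) to 226 (against 368, Control section 1). The part of these spot numbers in the weaker ratio was not tested. Npy was not set apart from Lamp5 and Vip, since spots with Npy held Lamp5 at 1.47 times (1.15 to 2.98, 8 of 8) and Vip at 1.90 times (0.629 to 3.30, 7 of 8). Vip and Lamp5 lay together, with Vip at 1.93 times its level in spots with Lamp5 (1.23 to 4.48). In those spots Sst was at 0.69 times its level elsewhere (0.458 to 0.953, below 1 in 8 of 8 sections), and in spots with Vip it was at 0.77 times (0.596 to 1.03). These ratios are a description: layer and the depth of a spot move with them, and their part was not tested.

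The first comparison asks what PTX left behind 6 months later, as PTX against Control. Of the 9 genes, Lamp5 rose in whole sections, and the other 8 did not pass the test. From here on, CPM of a single gene is after TMM scaling of the library sizes between sections. Summed marker levels, Xist and levels with the areas weighted equally are plain CPM. Lamp5 was at 160 and 170 CPM in PTX sections and at 117 and 100 CPM in Control sections. Both PTX sections were above both Control sections. The log2 fold change was 0.61 ± 0.09 (SE, adjusted p = 0.0285 over 16671 genes, edgeR's quasi-likelihood test, n = 2 each). In this comparison 0.126% of all genes passed in either direction and 0.048% as higher. In bulk sums of this kind, fewer cells of a type and less RNA per cell cannot be told apart.

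The share of a section taken by the areas rich in Lamp5 moved with the group. Upper-layer isocortex held 17.0% and 15.7% of the UMIs of PTX sections, against 13.7% and 8.75% in Control sections, and isocortex as a whole held 33.2% and 34.2%, against 27.1% and 22.9%. The unnamed Myoc cluster held 10.9% and 10.2% of the Lamp5 UMIs of PTX sections, against 13.3% and 19.5% in Control sections. With finer clusters (resolution 0.3), Myoc led a cluster named meninges (2189 spots). Lypd1 was then among the leading genes of a cluster named piriform cortex and amygdala (641 spots). How much of the unnamed Myoc cluster is isocortex was not tested. With every area given the same weight in every section, Lamp5 was at 151 and 159 CPM in PTX and at 120 and 120 CPM in Control. The log2 difference was 0.37 (adjusted p = 0.0238, limma without TMM factors), and the share of all genes that passed in that fit is not given here. The 0.61 above came from edgeR with TMM factors and no weights, so the 2 values differ in more than the weights. The summed level of 9 upper-layer markers, all detected, overlapped between the groups, at 293 and 284 CPM in PTX and 339 and 266 CPM in Control. The part of the area shares in the result was not tested. Without Control section 2 the adjusted p of Lamp5 was 0.0708 (log2 fold change 0.50), without PTX section 1 it was 0.107 (0.65) and without PTX section 2 it was 0.169 (0.56), and in each the edgeR call was lost. Without the PTX+ABT263 group in the fit it stayed at 0.60 (adjusted p = 0.0463).

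All 9 log2 fold changes were above 0 in whole sections of PTX against Control, with a median of 0.29, against a median of 0.01 over all genes tested. Both PTX sections were above both Control sections in 6 of the 9, where 21.8% of all genes were, and below in 0, where 20.5% were. An unadjusted p under 0.05 was found for 6, where 13.5% of all genes had one. The 9 genes were chosen with earlier results of these data known. Several also vary together across areas, as Gad1 and Gad2 do (Pearson r 0.92), so the 9 signs are not independent. These counts are therefore a description, here and in the other areas and comparisons. Several marker lists of other cell types differed without overlap between the same sections, and others overlapped. Oligodendrocyte markers overlapped, at 4072 and 5492 CPM in PTX, against 5019 and 4248 CPM in Control. Microglia markers did not, at 412 and 456 CPM, against 403 and 396 CPM, nor did vessel markers, at 817 and 803 CPM, against 682 and 733 CPM. The summed markers of excitatory neurons were at 1028 and 1085 CPM in PTX, against 1277 and 1186 CPM in Control (5 genes, all detected), and those of astrocytes at 2439 and 2697 CPM, against 3141 and 2705 CPM (6 of 6). Those of endothelium were at 211 and 220 CPM, against 190 and 173 CPM (6 of 6), and those of meninges at 1060 and 1224 CPM, against 925 and 870 CPM (10 of 10). The PTX sections were also deeper, at 42886400 and 38112160 UMIs, against 19870666 and 33160865 in Control. The part of these cell types in the result was not tested. With all sections thinned to the shallowest, Lamp5 was at 0.63 (adjusted p = 0.0194, edgeR), and all 9 were again above 0. Npy was at 206 and 264 CPM in PTX, against 159 and 154 CPM in Control (log2 fold change 0.58 ± 0.14, adjusted p = 0.133, edgeR). Gad1 was at 352 and 360 CPM in PTX, against 310 and 246 CPM in Control (0.36 ± 0.10, adjusted p = 0.179, edgeR). Both PTX sections were above Control for these 2, and neither passed over all genes. With 1 section left out at a time, Npy ranged from 0.40 (without PTX section 2) to 0.75. Gad1 ranged from 0.20 (without Control section 2) to 0.53 (without Control section 1).

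The remaining members had smaller differences. Gad2 was at 154 and 165 CPM in PTX, against 151 and 111 CPM in Control (0.29 ± 0.12), and Slc32a1 at 136 and 147 CPM, against 130 and 102 CPM (0.29 ± 0.12). Without Control section 2 these were 0.08 for Gad2 and 0.12 for Slc32a1, and without Control section 1 they were 0.51 and 0.47 in the same order. Cort was at 25.5 and 29.1 CPM in PTX, against 20.9 and 23.2 CPM in Control (0.30 ± 0.10). Vip, Cck and Sst overlapped between the groups, with log2 fold changes of 0.22, 0.05 and 0.03. Sst was at 424 and 491 CPM in PTX, against 492 and 403 CPM in Control.

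**Figure D3:**
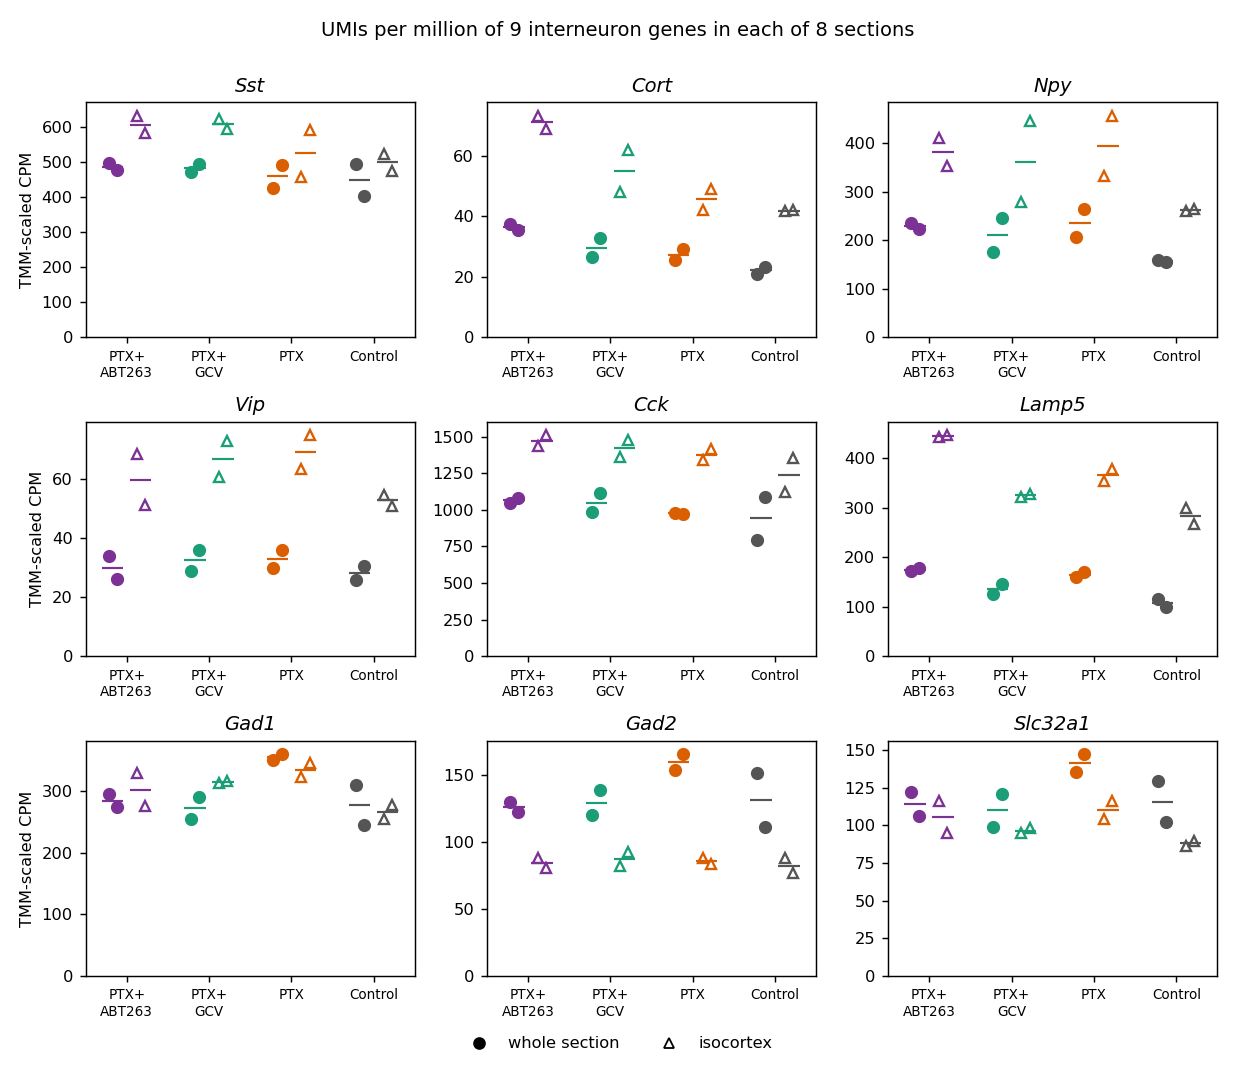
TMM-scaled CPM of each gene in each section (points) with the group mean (line), for whole sections (filled circles) and isocortex (open triangles), 2 sections per group. Lamp5 in whole sections was at 160 and 170 CPM in PTX against 117 and 100 CPM in Control, and Cort in isocortex was at 73.2 and 68.9 CPM in the sections labelled PTX+ABT263 against 42.03 and 49.0 CPM in PTX.

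Within isocortex, none of the 9 passed in PTX against Control with edgeR (0.257% of 14409 genes did), 5 had an unadjusted p under 0.05, against 12.6% of all genes, and DESeq2 called 1, Lamp5. All 9 differences were again above 0, with a median of 0.32, against 0.00 over all genes, and 6 of the 9 had both PTX sections above both Control sections, where 21.2% of all genes did, and 0 had both below, where 20.8% did. Lamp5 was at 354 and 378 CPM in PTX, against 299 and 267 CPM in Control (0.37 ± 0.08, adjusted p = 0.0808, edgeR). Npy was at 332 and 457 CPM in PTX, against 259 and 264 CPM in Control (0.59 ± 0.17, adjusted p = 0.160). The PTX sections differed more from each other in Npy than the Control sections did. Its log2 fold change ranged from 0.35 to 0.81 when 1 section was left out at a time.

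Vip in isocortex was at 63.5 and 75.0 CPM in PTX, against 54.8 and 50.9 CPM in Control (log2 fold change 0.39 ± 0.13, adjusted p = 0.243, edgeR). Gad1 was at 323 and 346 CPM, against 255 and 278 CPM (0.33 ± 0.09), and Slc32a1 at 104 and 116 CPM, against 86.4 and 89.7 CPM (0.32 ± 0.10). Gad2 overlapped between the groups, at 87.9 and 83.5 CPM in PTX, against 87.8 and 76.7 CPM in Control. The makeup of isocortex differed too, since upper layers held 17.0% and 15.7% of the UMIs of PTX sections and deep layers 16.2% and 18.5%, against 13.7% and 8.75% for upper layers and 13.4% and 14.2% for deep layers in Control. The layers were therefore also fitted apart, a choice made after seeing the data.

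In the layer fits, Lamp5 of PTX against Control gave 0.31 ± 0.09 in the upper layers (adjusted p = 0.110, edgeR, where 1.01% of 13025 genes passed) and 0.32 ± 0.11 in the deep layers (adjusted p = 0.279, where 0.313% passed). Upper-layer Lamp5 was at 519 and 552 CPM in PTX, against 440 and 421 CPM in Control. Vip gave 0.76 ± 0.20 in the deep layers (38.9 and 45.0 CPM in PTX, against 23.4 and 25.6 CPM in Control, adjusted p = 0.114) and 0.15 ± 0.13 in the upper layers. The test of the difference between layers for Vip gave 0.62 ± 0.15 (adjusted p = 0.149, limma), so it did not pass. Npy gave 0.58 ± 0.16 in the upper layers and 0.56 ± 0.16 in the deep layers.

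In hippocampus, none of the 9 passed in PTX against Control with edgeR (0.0334% of 11960 genes did) or DESeq2, and 4 had an unadjusted p under 0.05, against 3.79% of all genes. Gad1 was at 326 and 277 CPM in PTX, against 188 and 206 CPM in Control (0.61 ± 0.13, adjusted p = 0.560). Sst was at 339 and 355 CPM in PTX, against 193 and 215 CPM in Control (0.76 ± 0.19, adjusted p = 0.832), and Npy at 263 and 254 CPM, against 154 and 166 CPM (0.69 ± 0.17, adjusted p = 0.826). The Sst difference was absent when areas were set by marker score instead of clusters, at −0.0012. Both PTX sections were above both Control sections in 6 of the 9, where 15.1% of all genes were, and below in 0, where 15% were. The hippocampus held 105 to 272 spots per section.

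A test within each section asked whether the effect of PTX differed between isocortex and the rest of the section. The rest included the unnamed Myoc cluster, which held 19.3% and 17.8% of the Vip UMIs of PTX sections, against 20.9% and 51.8% in Control sections. The part of that cluster in the differences was not tested. None of the 9 passed with limma (0.0279% of 14361 genes did), and 3 had an unadjusted p under 0.05, against 8.41% of all genes. Vip had the largest such difference of the 9, 0.76 ± 0.18 (adjusted p = 0.179), and Gad2 the most negative, −0.37 ± 0.10 (adjusted p = 0.310). Without Control section 1 both passed, at 1.15 for Vip (adjusted p = 0.000224) and −0.54 for Gad2 (0.0145), where 0.668% of all genes did. Without Control section 2 they were 0.37 for Vip (adjusted p = 0.195) and −0.19 for Gad2 (0.432).

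**Figure D4:**
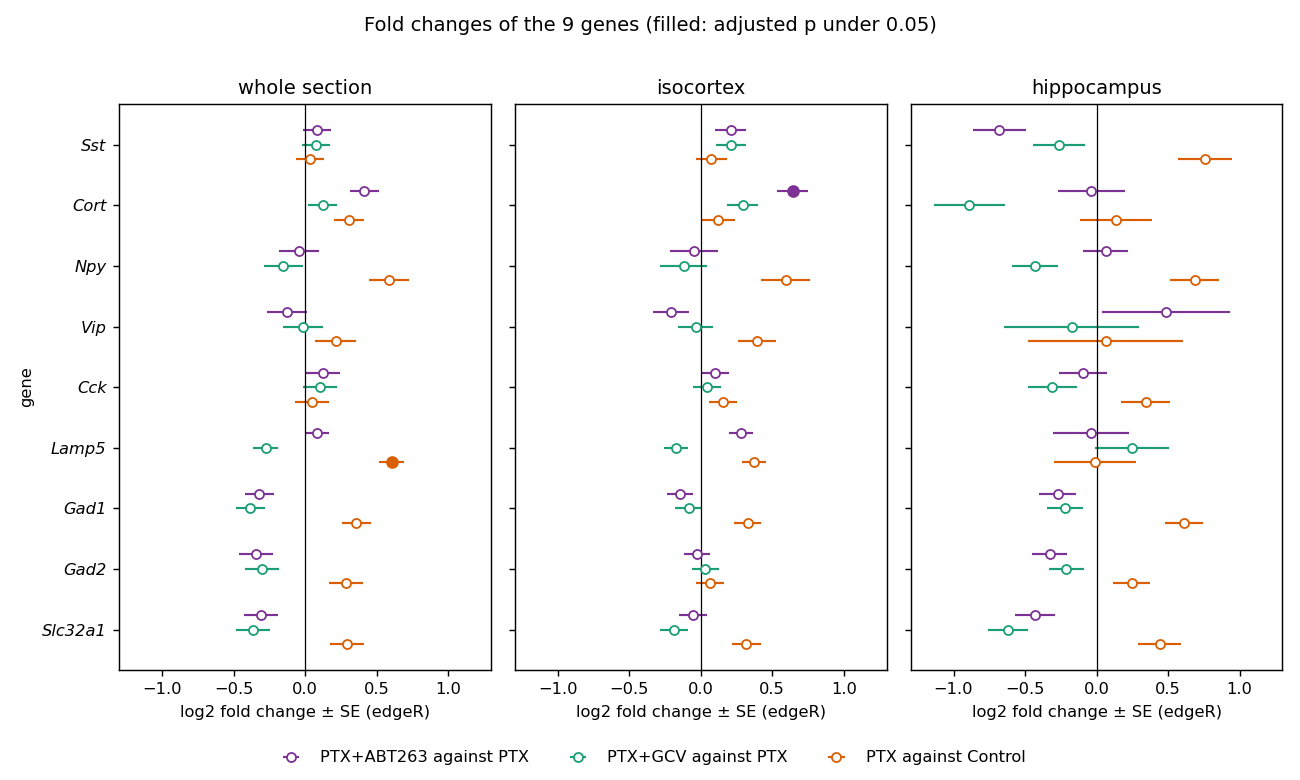
Log2 fold change ± SE (edgeR) of each gene in 3 comparisons, for whole sections, isocortex and hippocampus, with filled points where the adjusted p was under 0.05. The 2 filled points are Lamp5 in whole sections of PTX against Control (0.61) and Cort in isocortex of the sections labelled PTX+ABT263 against PTX (0.64).

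The second comparison asks whether removing p16-expressing cells with GCV moved these genes in PTX-treated mice, as PTX+GCV against PTX. It shares the PTX sections with the other 2 comparisons, so signs across them are not independent. None of the 9 passed in whole sections with edgeR (0.024% of all genes did), DESeq2 called 1, Gad1, as lower, and 4 had an unadjusted p under 0.05, all lower, against 10.7% of all genes. Gad1 was at 255 and 291 CPM in PTX+GCV, against 352 and 360 CPM in PTX (−0.38 ± 0.10, adjusted p = 0.218, edgeR). Slc32a1 was at 99.2 and 121 CPM, against 136 and 147 CPM (−0.36 ± 0.12), and Gad2 at 120 and 139 CPM, against 154 and 165 CPM (−0.30 ± 0.12). Both PTX+GCV sections were below both PTX sections for all 3 GABA genes, but not once the areas were weighted equally.

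Lamp5 was at 127 and 146 CPM in whole sections of PTX+GCV, against 160 and 170 CPM in PTX (−0.27 ± 0.09, adjusted p = 0.293, edgeR). Both PTX+GCV sections were below PTX in 4 of the 9, where 20.2% of all genes were, and above in 1, where 20.6% were. The share of the areas moved here too: the reticular thalamus and pallidum, where the 3 GABA genes peak, held 0.636% and 0.412% of the UMIs (37 and 41 spots) in PTX+GCV, against 1.47% and 2.28% (56 and 73 spots) in PTX. With every area given the same weight in every section, Gad1 was at 298 and 344 CPM in PTX+GCV, against 348 and 328 CPM in PTX (−0.08, adjusted p = 0.868, limma). Gad2 was at 138 and 159 CPM, against 155 and 155 CPM (−0.06), and Slc32a1 at 114 and 137 CPM, against 135 and 137 CPM (−0.12). All 3 then overlapped between the groups, and each difference was smaller in size than without the weights. Lamp5 gave −0.13. The weighted fit used limma without TMM factors, and the part of that change in the smaller differences was not tested. In isocortex, none of the 9 passed with edgeR (0.0208% of all genes did) or DESeq2, and 1 had an unadjusted p under 0.05 (against 7.06% of all genes), Cort, at 48.1 and 62.0 CPM in PTX+GCV, against 42.03 and 49.0 CPM in PTX (0.29 ± 0.11, adjusted p = 0.640). There the GABA genes gave −0.08 (Gad1), 0.03 (Gad2) and −0.19 (Slc32a1). Both PTX+GCV sections were below PTX in 3 of the 9, where 19.2% of all genes were, and above in 1, where 18.3% were. The difference between isocortex and the rest gave 0.45 ± 0.15 for Gad1 (adjusted p = 0.960, limma) and 0.46 ± 0.10 for Gad2 (adjusted p = 0.798). None of the 9 passed that test (0.00696% of all genes did), and 3 had an unadjusted p under 0.05, against 4.6% of all genes.

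In hippocampus, none of the 9 passed in PTX+GCV against PTX with edgeR (0.0334% of all genes did) or DESeq2, and 3 had an unadjusted p under 0.05, against 5.63% of all genes. Slc32a1 was at 64.2 and 52.5 CPM in PTX+GCV, against 82.9 and 95.5 CPM in PTX (−0.62 ± 0.14, adjusted p = 0.513). Cort was at 29.6 and 44.4 CPM, against 61.5 and 81.3 CPM (−0.89 ± 0.25, adjusted p = 0.833). Both PTX+GCV sections were below both PTX sections in 6 of the 9, where 18.8% of all genes were, and above in 0, where 18.7% were.

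The third comparison asks the same of the senolytic ABT263, as the sections labelled PTX+ABT263 against PTX. Cort rose in isocortex. It was at 73.2 and 68.9 CPM in the sections labelled PTX+ABT263 and at 42.03 and 49.0 CPM in PTX, with no overlap. The log2 fold change was 0.64 ± 0.11 (SE, adjusted p = 0.0187 over 14409 genes, edgeR, n = 2 each), where 0.201% of all genes passed and 0.0902% did as higher. An unadjusted p under 0.05 was found for 2 members, against 10.9% of all genes. Both sections were above PTX in 3 of the 9, where 21.8% of all genes were, and below in 0, where 21.9% were. Control sections were at 41.7 and 41.9 CPM and PTX+GCV sections at 48.1 and 62.0 CPM, so the sections labelled PTX+ABT263 were above all other 6.

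By layer, Cort passed in the deep layers and not in the upper layers. It was at 98.9 and 98.4 CPM in the deep layers of the sections labelled PTX+ABT263, against 49.2 and 64.2 CPM in PTX (0.80 ± 0.12, adjusted p = 0.00102, edgeR, where 0.142% of 13410 genes passed). In the upper layers it was at 37.3 and 37.1 CPM, against 35.5 and 31.5 CPM (0.15 ± 0.13, adjusted p = 0.749). The difference between layers itself was 0.65 ± 0.16 and did not pass over all genes (adjusted p = 0.982, unadjusted p = 0.000255, limma). Sst, which many Cort cells also make, was at 833 and 770 CPM in the deep layers of the sections labelled PTX+ABT263, against 610 and 704 CPM in PTX (0.29 ± 0.10, adjusted p = 0.319).

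The call of Cort in isocortex was lost at lower depth and without any of 3 of the 4 sections compared. With all sections thinned to the shallowest, the log2 fold change was 0.49 and the adjusted p 0.144 (edgeR). It was 0.54 (adjusted p = 0.376) without PTX section 1, 0.60 (0.103) without PTX+ABT263 section 1 and 0.69 (0.104) without PTX+ABT263 section 2. The difference cannot be told apart from one between sections that differ in sex-linked transcripts. In PTX+ABT263 section 2 a single spot held 117 of the 1180 Cort UMIs, against at most 59 in a spot of any other section. The area of that spot is not given here, and its part in the call was not tested. In hippocampus of the same comparison Cort gave −0.04 ± 0.24.

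**Figure D5:**
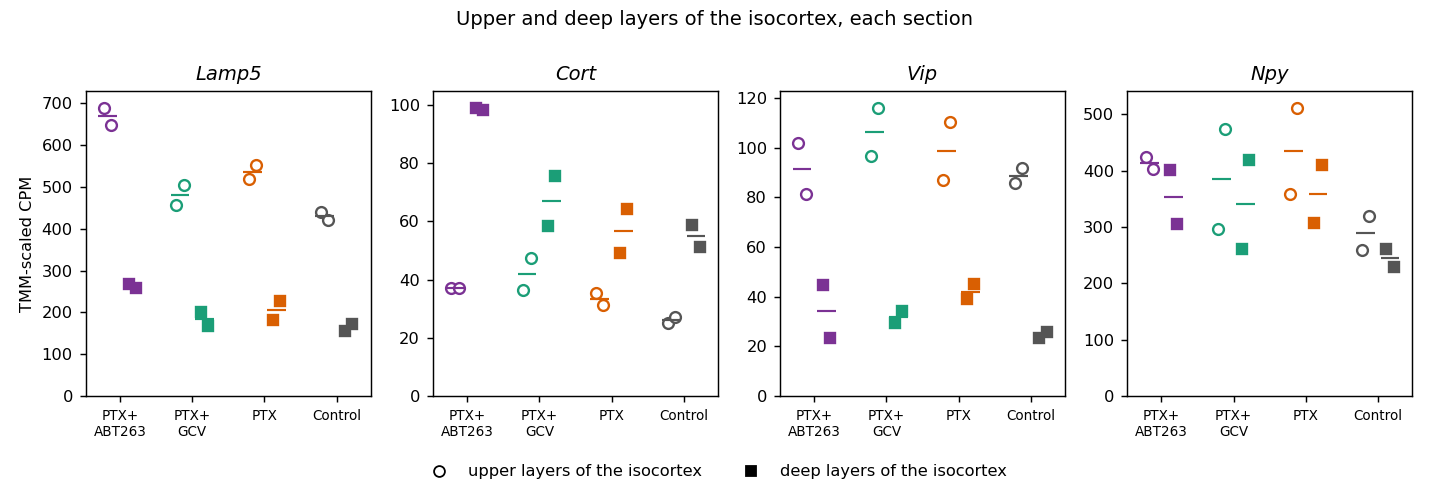
TMM-scaled CPM of Lamp5, Cort, Vip and Npy in the upper (open circles) and deep layers (filled squares) of the isocortex in each section, with the group mean (line), 2 sections per group. Deep-layer Cort was at 98.9 and 98.4 CPM in the sections labelled PTX+ABT263, above the other 6, while its upper-layer values were between 25.0 and 47.5 CPM in all groups.

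In isocortex Lamp5 was at 442 and 446 CPM in the sections labelled PTX+ABT263, against 354 and 378 CPM in PTX (0.28 ± 0.08, adjusted p = 0.213, edgeR). The upper layers alone held 688 and 649 CPM, against 519 and 552 CPM. Both sections were above PTX, above PTX+GCV (457 and 504 CPM in the upper layers) and above Control. Lamp5 also had the largest difference between isocortex and the rest among the 9, 0.47 ± 0.10 (adjusted p = 0.258, limma). None of the 9 passed that test (0.00696% of all genes did), and 5 had an unadjusted p under 0.05, against 5.26% of all genes. When 1 section was left out at a time, this difference ranged from 0.40 to 0.55 for Lamp5 and from 0.30 to 0.53 for Gad2.

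In whole sections, none of the 9 passed in the sections labelled PTX+ABT263 against PTX with edgeR (0.138% of all genes did) or DESeq2, and 4 had an unadjusted p under 0.05, against 11.8% of all genes. Cort was at 37.2 and 35.5 CPM, against 25.5 and 29.1 CPM in PTX (0.42 ± 0.10, adjusted p = 0.141). The 3 GABA genes had both sections below PTX, with Gad1 at 295 and 275 CPM, against 352 and 360 CPM in PTX (−0.32 ± 0.10, adjusted p = 0.247), Gad2 at 129 and 122 CPM, against 154 and 165 CPM (−0.34 ± 0.12), and Slc32a1 at 122 and 106 CPM, against 136 and 147 CPM (−0.31 ± 0.12). With every area at the same weight in every section, Gad2 passed as lower, at 128 and 118 CPM, against 155 and 155 CPM in PTX (−0.33, adjusted p = 0.0445, limma). In that fit 1.43% of all genes passed. It had no TMM factors, and the part of the scale in this result was not tested. In isocortex the same 3 gave −0.15, −0.03 and −0.06. Both sections were below PTX in 3 of the 9 and above PTX in 3, where 22.3% of all genes were below and 22.3% above.

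In hippocampus, none of the 9 passed in the sections labelled PTX+ABT263 against PTX with edgeR (0.109% of all genes did) or DESeq2, and 4 had an unadjusted p under 0.05, against 3.66% of all genes. Sst was at 239 and 194 CPM, against 339 and 355 CPM in PTX (−0.68 ± 0.19), and Slc32a1 at 65.5 and 66.3 CPM, against 82.9 and 95.5 CPM (−0.43 ± 0.14). Both sections were below PTX in 4 of the 9, where 15.3% of all genes were. The scale matters here: with total counts in place of TMM factors, the median of all genes shifted by −0.12 in whole sections and by −0.13 in isocortex for this comparison, and by at most 0.07 for the other comparisons in either direction. The whole-section differences of Sst (0.09) and Lamp5 (0.08) and the isocortex difference of Cck (0.10) changed sign under that scale.

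Beyond the 9, 4 lists of related genes were counted in the same fits. Of 42 interneuron identity genes, 41 were tested in whole sections of PTX against Control. An unadjusted p under 0.05 was found for 13 (5 higher and 8 lower), where 13.5% of all genes had one. After adjustment 3 changed, where 0.126% of all genes did. Pvalb, the calcium buffer of fast-spiking basket cells, rose (0.51 ± 0.08, adjusted p = 0.0431, edgeR), as did Tac2, the neurokinin B precursor (0.86 ± 0.14, adjusted p = 0.0448), and Nr2f2, a transcription factor of interneurons from the caudal eminence, fell (−0.82 ± 0.12, adjusted p = 0.0285). The median of the list was 0.00, against 0.01 over all genes tested. Tac2 is also made in the habenula, and the summed habenula markers, of which Tac2 is 1, were at 111 and 110 CPM in PTX, against 70.4 and 62.6 CPM in Control. The summed markers of piriform cortex and amygdala, of which Nr2f2 is 1, were at 285 and 274 CPM in PTX, against 339 and 378 CPM in Control. The part of either tissue in these results was not tested.

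Pvalb also rose in isocortex of PTX against Control (0.64 ± 0.12, adjusted p = 0.0428, edgeR), where 0.257% of all genes passed. It fell in whole sections of PTX+GCV against PTX (−0.73 ± 0.08, adjusted p = 0.0242, edgeR), where 0.024% passed. Pvalb is a marker of the reticular thalamus and pallidum too, whose spots were fewer in PTX+GCV, and its part was not tested. None of the 41 passed in whole sections labelled PTX+ABT263 against PTX, where 14 had an unadjusted p under 0.05 (11.8% of all genes did), and Calb2, the calretinin gene of many Vip cells, was the nearest at −0.72 ± 0.12 (adjusted p = 0.0509).

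None of 14 genes of GABA uptake and metabolism passed in whole sections in any of the 3 comparisons with edgeR, and 2, 3 and 1 had an unadjusted p under 0.05 in PTX against Control, PTX+GCV against PTX and the sections labelled PTX+ABT263 against PTX, where 13.5%, 10.7% and 11.8% of all genes did. The nearest was Slc6a11, a GABA transporter of astrocytes, at −0.43 ± 0.08 in PTX against Control (adjusted p = 0.0753). Of 17 receptors of the peptides, 11 were tested in whole sections and none passed in any comparison (unadjusted 3, 5 and 2 in the same order). Vipr2, a VIP receptor, gave −1.24 ± 0.30 in PTX against Control (adjusted p = 0.135). None of 17 genes of peptide processing and dense core vesicles passed in whole sections either (unadjusted 4, 3 and 2), and Cpe, the carboxypeptidase that trims peptide precursors, gave −0.27 ± 0.07 in PTX against Control (adjusted p = 0.159).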

How the data were processed

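The authors deposited UMI counts, not normalized, for each gene in each spot. File headers name Space Ranger 1.2.1, and the submitters' processing notes name mm10 and Seurat 4.0. Of the spots under tissue, 768 fell below 200 genes or above a mitochondrial share of 30% and were dropped. Spots were clustered in Seurat 5.3.0 (R 4.3.3) with SCTransform and reciprocal PCA integration (2000 features without the 9 genes, 20 components, resolution 0.15), and a cluster was named from its leading 10 genes and a marker list. Clusters, images and tests of the authors were not used here, nor was a test over spots, since spots of 1 section are not independent. Counts were summed per section and area and fitted over all 8 sections in edgeR 4.0.16 (TMM, filterByExpr, quasi-likelihood F-test, Benjamini-Hochberg over all genes, threshold 0.05). SEs were derived from the F statistic and the fold change. Differences between areas within a section used limma 3.58.1 (log2 CPM, prior count 2), and equal area weights used log2 with a pseudocount of 0.5. CPM by area, of summed markers, of Xist and Y-linked genes and at equal area weights is plain. Other CPM beside a test is scaled by TMM. DESeq2 1.42.0, other filters, scales, fits, depths, area definitions, a replicate block and leaving out each section were tried. Precision was limited by the 2 sections per group. The labels give 1 batch. The tests were checked on simulated data with the same spread for every gene and no differences in area shares between sections. That check does not cover the unequal spread and area shares of the real sections.

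The 9 genes, their lists and the areas were chosen with earlier results of these data known. All 9 are named in every comparison, with genes from the 3 most like each (some are not reported here) and, from 4 lists, the genes with the smallest p. Positions are from the annotation of GRCm38, whose gene IDs match those in the files, and promoter sequences are from RefSeq (GRCm38.p6).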

Additional observations from a re-analysis of the deposited data

Results flagged for a closer look

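Xist, which the comparisons of the 9 genes do not use, was at 19.7 CPM in PTX+ABT263 section 1 and at 19.3 CPM in PTX+ABT263 section 2, above its level of 0 to 0.0259 CPM in the other 6 sections, although the label of both is male.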

How the results depend on the processing

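The deposited counts gave 1 called member in whole sections of PTX against Control (Lamp5) and 1 in isocortex of the sections labelled PTX+ABT263 against PTX (Cort), and none elsewhere. In whole sections of PTX against Control, DESeq2 called 2 (Gad1 and Lamp5, against 0.949% of all genes), no filter on low counts 6 (against 3.7%), and leaving out 1 section gave 0 to 2. In whole sections of PTX+GCV against PTX, DESeq2 called 1 (Gad1, against 0.474%) and no filter 4 (2.31%). In those labelled PTX+ABT263 against PTX, no filter gave 4 (3.01%) and equal area weights 1 (Gad2, 1.43%). In isocortex of PTX against Control, DESeq2 called 1 (Lamp5, against 2.04%), no filter 5 (1.86%), a fit of only the 2 groups 1 (Npy, 0.511%), clusters at the finer resolution of 0.3 called 1 (Lamp5, 0.479%), areas by marker score 2 (Gad1 and Lamp5, 0.42%), and leaving out 1 section 0 to 1. Cort in isocortex of the sections labelled PTX+ABT263 against PTX was no longer called when thinned (0) or in the upper layers (0), and leaving out 1 section gave 0 to 1. In hippocampus, no filter called 3 members in PTX against Control (0.14%), 2 in PTX+GCV against PTX (0.384%) and 1 (0.171%) in the sections labelled PTX+ABT263 against PTX. For isocortex against the rest, the finer clusters called 1 in PTX against Control (Vip, 0.0687%), and leaving out 1 section gave 0 to 2 there, as it did for the sections labelled PTX+ABT263 against PTX. The causes were not tested. The fits by layer, and area levels without the sections labelled PTX+ABT263, were chosen after seeing the data.

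The section numbers do not pair the samples: deviations of same-numbered sections correlated at −0.304 to 0.103. With the replicate number as a block, 0 members passed in whole sections of PTX against Control (Lamp5 adjusted p = 0.0842) and 1 in isocortex of the sections labelled PTX+ABT263 against PTX (Cort), and the block changed no other count of members called.

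Some differences changed sign, and none of these passed with the changed sign. Not all were small in the main fit: in hippocampus Sst was at 0.76 in PTX against Control. Vip was at 0.49 there in the sections labelled PTX+ABT263 against PTX. With total counts the log2 values were Vip 0.030 (whole sections, PTX+GCV against PTX), Sst −0.030, Lamp5 −0.033 (whole sections, sections labelled PTX+ABT263 against PTX), Vip 0.011 (isocortex, PTX+GCV against PTX), Cck −0.036 (isocortex, sections labelled PTX+ABT263 against PTX). With equal area weights the log2 values were Vip 0.025 (whole sections, PTX+GCV against PTX), Cck −0.017 (whole sections, sections labelled PTX+ABT263 against PTX). Thinned to the shallowest section the log2 values were Vip 0.064, Gad2 −0.054 (isocortex, PTX+GCV against PTX), Slc32a1 0.028 (isocortex, sections labelled PTX+ABT263 against PTX), Lamp5 0.021 (hippocampus, PTX against Control), Lamp5 0.17 (hippocampus, sections labelled PTX+ABT263 against PTX). With areas by marker score the log2 values were Gad2 −0.0069 (isocortex, PTX+GCV against PTX), Sst −0.0012, Vip −0.37, Lamp5 0.026 (hippocampus, PTX against Control), Lamp5 0.022 (hippocampus, sections labelled PTX+ABT263 against PTX). In the upper layers alone the log2 values were Vip 0.12, Gad2 −0.00091 (isocortex, PTX+GCV against PTX), Sst −0.092, Gad2 0.013 (isocortex, sections labelled PTX+ABT263 against PTX). In the deep layers alone the log2 values were Slc32a1 0.0094 (isocortex, sections labelled PTX+ABT263 against PTX). With no filter on low counts the log2 values were Lamp5 0.0039 (hippocampus, PTX against Control). With clusters at resolution 0.3 the log2 values were Vip −0.023 (hippocampus, PTX against Control), Cort 0.017 (hippocampus, sections labelled PTX+ABT263 against PTX), Cort 0.041, Gad1 0.0054, Slc32a1 0.053 (isocortex minus the rest, PTX against Control). Leaving out 1 section at a time, the log2 values ranged as follows. In whole sections of PTX against Control, Cck −0.17 to 0.30, Sst −0.11 to 0.18. In whole sections of PTX+GCV against PTX, Sst −0.026 to 0.19, Npy −0.41 to 0.071, Vip −0.18 to 0.13, Cort −0.035 to 0.26. In whole sections labelled PTX+ABT263 against PTX, Sst −0.017 to 0.19, Npy −0.21 to 0.15, Vip −0.33 to 0.049. In isocortex of PTX against Control, Gad2 −0.033 to 0.16, Sst −0.12 to 0.25. In isocortex of PTX+GCV against PTX, Npy −0.50 to 0.17, Vip −0.18 to 0.087, Gad2 −0.057 to 0.11, Cck −0.015 to 0.10. In isocortex of the sections labelled PTX+ABT263 against PTX, Gad2 −0.10 to 0.036, Npy −0.26 to 0.20, Slc32a1 −0.21 to 0.082. In hippocampus of PTX against Control, Cort −0.19 to 0.76, Vip −0.40 to 0.56, Lamp5 −0.74 to 0.39. In hippocampus of PTX+GCV against PTX, Vip −0.87 to 0.30, Lamp5 −0.15 to 0.98, Sst −0.67 to 0.040. In hippocampus of the sections labelled PTX+ABT263 against PTX, Vip −0.71 to 1.05, Lamp5 −0.43 to 0.69, Cort −0.24 to 0.16, Cck −0.23 to 0.051, Npy −0.19 to 0.28. In isocortex minus the rest of PTX against Control, Sst −0.058 to 0.21, Cort −0.35 to 0.047, Lamp5 −0.15 to 0.068, Gad1 −0.38 to 0.26, Slc32a1 −0.29 to 0.25. In isocortex minus the rest of PTX+GCV against PTX, Lamp5 −0.13 to 0.12, Npy −0.31 to 0.19. In isocortex minus the rest of the sections labelled PTX+ABT263 against PTX, Npy −0.24 to 0.039, Cck −0.20 to 0.010.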
